A study of Mus musculus with 71 samples.

Results

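The genes of the AP-1 transcription factor family and of the immediate early response were followed through the chromatin loops of mouse synovial sarcoma (SyS). The members were Fos, Fosb, Fosl1, Fosl2, Jun, Junb, Jund, Atf3, Egr1 and Ier2. A loop was counted for a member when 1 of its anchors, the paired regions that a loop joins, lay within 2 kb of a transcription start site (TSS) that GENCODE gives the gene. All 10 members had a loop, and together they held 75 of the 24244 loops and 173 of the 41574 tags in the list, a tag being a read pair that joins the anchors. The loops came from H3K27ac HiChIP, a proximity ligation assay that enriches contacts of chromatin carrying this histone mark of active promoters and enhancers. It was run on 2 hSS2 tumors, which expressed human SS18::SSX2 in the hindlimb of mice after TATCre injection on day 8 of life. TATCre is a Cre protein that enters cells by itself, so no promoter of a cell type drove the recombination. The tumors were dissociated to single cells before crosslinking. No tissue without the fusion is in the loop list, so the values describe these tumors and no difference between conditions was tested.

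Fos, Fosb, Fosl1 and Fosl2 encode proteins that cannot pair with each other and bind DNA as dimers with a Jun protein, whereas Jun, Junb and Jund can also pair among themselves. These leucine zipper dimers are known as AP-1, and Atf3 is a related leucine zipper factor that can dimerize with Jun proteins. Egr1 is a zinc finger factor and Ier2 a small nuclear protein, and like Fos and Jun their genes are switched on within minutes of growth factor or stress signals without new protein synthesis. The best known switch is serum response factor, which binds the CArG box of the serum response element in several of these promoters. AP-1 itself is known for binding enhancers and for recruiting the BAF chromatin remodeler whose subunit SS18 is fused in SyS.

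The list gives 1 count per loop for both tumors together and names neither, so there is no spread between tumors and every value is a description with no test. In a tumor sample, fewer cells with a contact and fewer contacts per cell cannot be told apart. The list consists of 2 sorted parts with no label. Since loops were called for each tumor and then merged, each part may hold the loops of 1 tumor, but nothing in the file or the labels says so, and a loop in both parts is not taken as a replicate. The first held 13683 loops with 28657 tags and the second 10561 loops with 12917 tags. Intervals given below are exact Poisson 95% intervals for tags and Wilson 95% intervals for shares, and they cover counting error only. A gene with no listed loop may still have tags, since the list holds only loops that passed the loop calling. Across all protein-coding genes, 45.8% had a loop. Of the 6 mesenchymal markers examined, 3 had a loop. Their loop scores, the summed tags of all loops of a gene, were 41 at Pdgfra, 22 at Twist1 and 5 at Prrx1, and Pdgfrb, Col1a1 and Col1a2 had none. Among markers of synovial sarcoma, 3 of the 7 with a GENCODE name had a loop, with at most 4 tags for Tle1, and Bcl2, Krt7, Krt8 and Krt19 had none. None of the 5 immune markers had a loop. Among endothelial markers 1 of 3 had a loop, Cdh5 with a score of 3, and among muscle markers 1 of 4, Ckm with a score of 2, and the part of such cells in the values below was not tested.

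The loop scores ranged from 44 tags at Fos to 2 at Fosl1. Fos had 15 loops and 44 tags (32.0 to 59.1). Jund followed with 30 tags (20.2 to 42.8) in 12 loops and Junb with 21 (13 to 32.1) in 10 loops. Fosl2 and Ier2 both had 18 tags (10.7 to 28.4), in 10 and 9 loops. Jun had 16 tags (9.15 to 26.0) in 7 loops and Egr1 had 15 (8.40 to 24.7) in only 4. At the low end were Fosb with 8 tags (3.45 to 15.8) in 5 loops, Atf3 with 3 (0.619 to 8.77) in 2 loops and Fosl1 with 2 (0.242 to 7.22) in 2 loops. The interval of every member overlapped that of its neighbor in this order, so neighbors were not separated by their counting error. The interval of Fos overlapped those of Jund and Junb and lay above those of all other members.

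**Figure D1:**
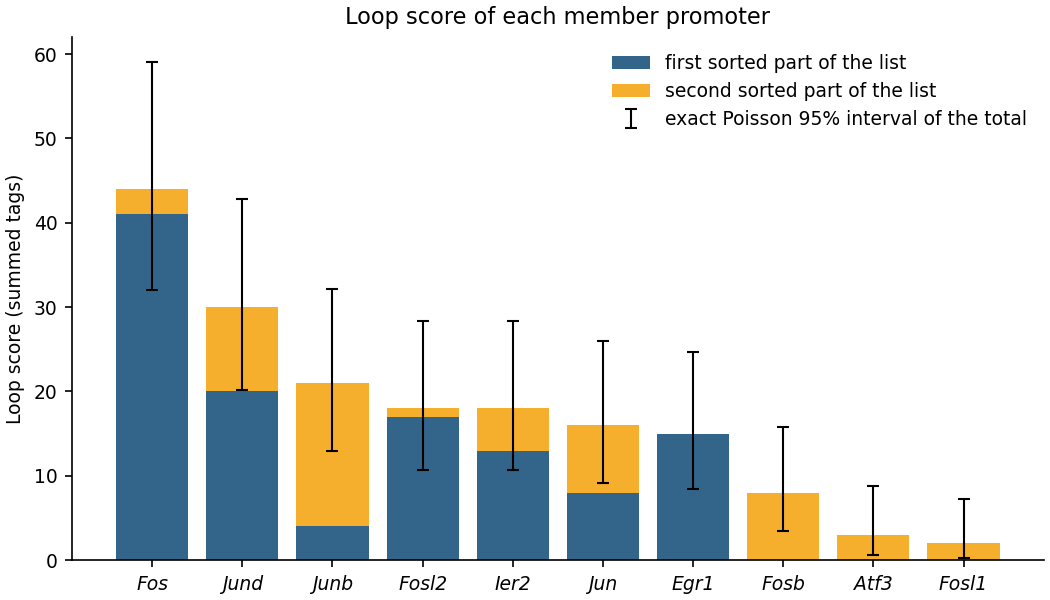
Loop score of each member, the summed tags (vertical axis) of its loops in the merged list of 2 tumors. Bars are divided by the sorted part of the list that holds the tags, and error bars are exact Poisson 95% intervals of the total. Fos stands highest at 44 tags, 41 of them in the first part, and Fosb, Atf3 and Fosl1 have tags in the second part alone.

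Read against other genes, a loop was common and a high score was not. Of 21951 protein-coding genes, 45.8% had a loop, beside 10 of 10 members. A score of at least 10 was reached by 10.9% of protein-coding genes and by 7 of 10 members, and a loop of at least 4 tags by 8.51% and by 8 of 10 members. The median member had 17 tags in 8 loops, and the median looped protein-coding gene had 4 tags in 3 loops, with an upper quartile of 9 tags. Fos ranked 293 among the 10050 looped protein-coding genes, with 97.0% of them below it. Jund was above 94.2%, Junb above 90.2%, Fosl2 and Ier2 above 87.9%, Jun above 86.0%, Egr1 above 84.8% and Fosb above 70.1%. Atf3 and Fosl1 lay below the median, above 35.2% and 20.5% of looped genes.

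**Figure D2:**
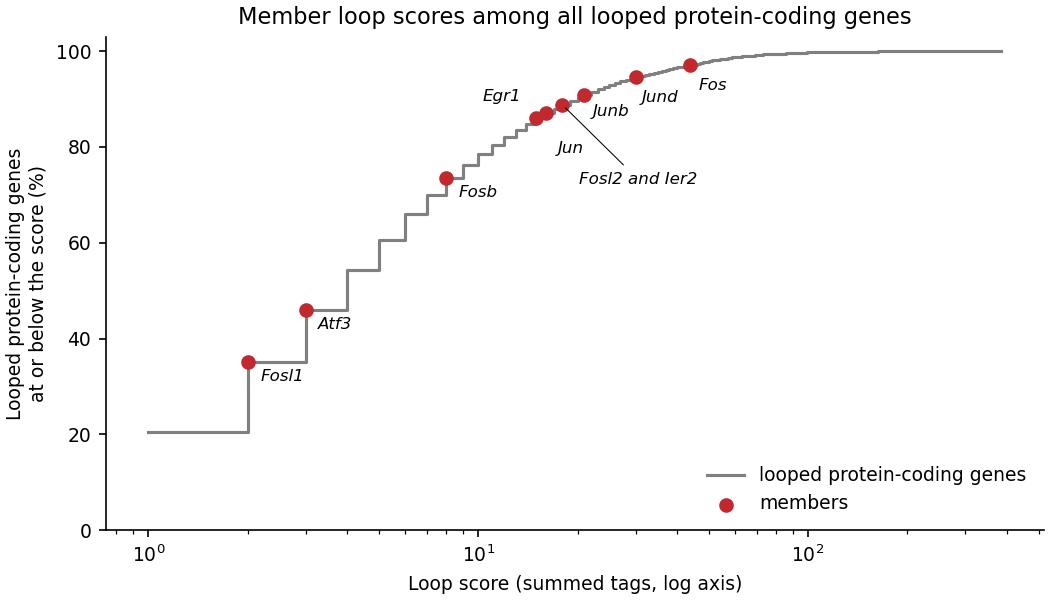
Cumulative share of the 10050 looped protein-coding genes (vertical axis, %) at or below each loop score (horizontal axis, summed tags, log scale), with the members as points. 8 members lie to the right of the median score of 4, and Atf3 and Fosl1 lie to its left.

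The tags of the members were gathered in a few loops. A single tag made up 53 of the 75 loops, or 70.7% (59.6 to 79.8), beside 78.0% of all loops. Loops of at least 4 tags were 12 of 75, or 16% (9.40 to 25.9), beside 6.74% of all loops, and they carried 99 of the 173 tags, or 57.2% (49.8 to 64.4), beside 35.0%. Short loops were also more frequent, with 10 of 75 under 100 kb, or 13.3% (7.41 to 22.8), beside 5.13%. Within this range the member loops were not stronger than others, at a median of 8 tags beside 9. The shortest loop of a single tag in the whole list spanned 109 kb, so a loop under 100 kb carries several tags wherever it is listed. The median span, between anchor midpoints, was 449 kb for members and 500 kb for all loops.

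**Figure D3:**
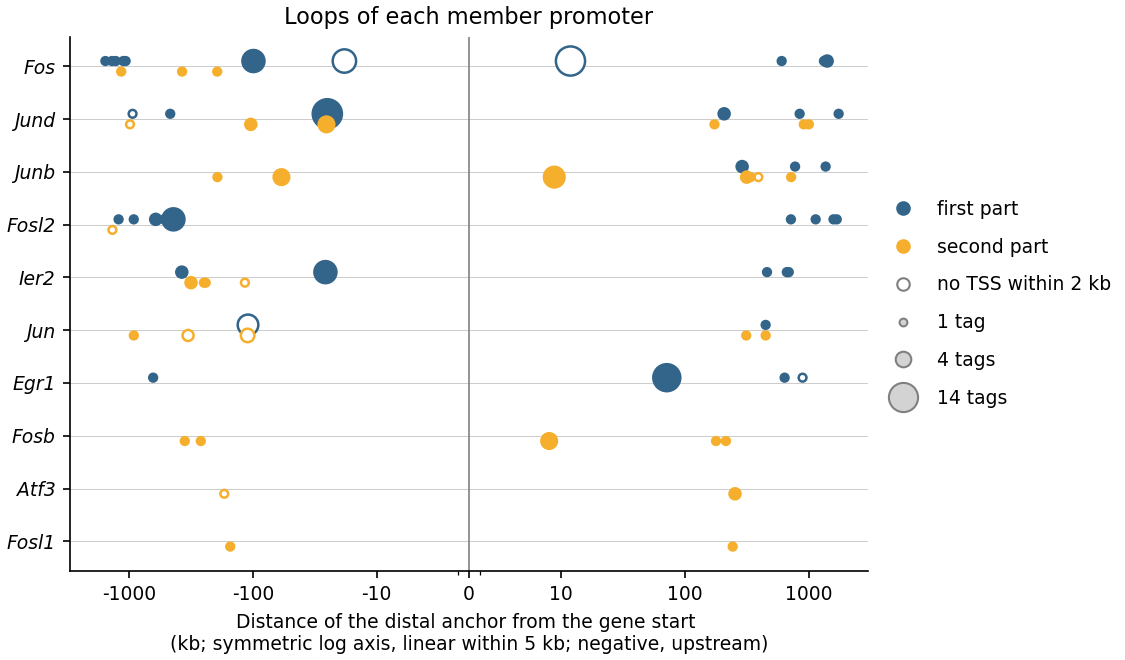
Every loop of each member by the distance of its distal anchor from the gene start (horizontal axis, kb, symmetric log scale, negative upstream), with circle area in proportion to tags and color by part of the list. For Atf3, whose loops start at an internal TSS, the span of the loop is plotted. Open circles are anchors with no TSS within 2 kb, and the open circles with the most tags lie on both sides of Fos and upstream of Jun.

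Most loops of the members led to other promoters, as loops did in the list at large. Of 73 distinct distal anchors, some of which overlap, 59 were near a TSS of a different gene. This is 80.8% (70.3 to 88.2), beside 77.0% of all 16864 anchors in the list that were near any TSS. The other 14 belonged to 8 members, 7 of them in a gene body and 7 outside GENCODE genes, at a median of 8.64 kb from the nearest TSS. Loops to these 14 were mostly single tags, and the exceptions were a pair of anchors at Fos and a pair of regions upstream of Jun.

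The anchors were searched for 5 motifs on both strands of the GRCm38 sequence, and each match is a description of letters and not a bound site. The AP-1 motif TGANTCA, which includes the stricter TGAGTCA, stood in 46.6% (35.6 to 57.9) of the member distal anchors and in 46.5% of all 16864 anchors. In the 14 distal anchors far from every TSS it stood in 8, or 57.1% (32.6 to 78.6), beside 50.0% of the 3885 such anchors in the list. The stricter TGAGTCA stood in 7 of these 14 (26.8 to 73.2%) beside 35.0%. Overlapping anchors at Jun share a TGAGTCA and were counted separately in these values. The distal anchors of the members thus held the AP-1 motif about as often as anchors elsewhere, within their counting error. In the 14 promoter anchors, some of which overlap, TGANTCA stood in 9, or 64.3% (38.8 to 83.7), beside 45.4% of the 12979 anchors near a TSS. These anchors were wider than most, at a median of 3.80 kb beside 2.70 kb, and per kb they held 0.195 matches beside 0.227.

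The CArG box, the core of the serum response element, stood in the promoter anchors of 4 members, Fos, Fosb, Junb and Egr1, with 5 matches at Egr1 alone. This came to 5 of the 14 promoter anchors, or 35.7% (16.3 to 61.2), beside 13% of all anchors near a TSS. With overlapping anchors merged and each site counted once, the members had 9 sites, or 0.215 per kb, beside 0.0497 matches per kb over all anchors near a TSS. Without Egr1 this was 4 sites, or 0.106 per kb. In the member distal anchors it stood in 11% (5.66 to 20.2) beside 13% of all anchors. The cAMP response element TGACGTCA, a site of CREB and ATF dimers, stood in 4 of 14 promoter anchors, or 28.6% (11.7 to 54.6), beside 6.73%. These 4 were overlapping anchors at Jund and at Ier2, so they hold a single site for each gene. In the 250 bases before the RefSeq gene start, tabulated for 7 members (the table lacks an entry for Fosl1, Egr1 and Ier2), TGANTCA, TGACGTCA and the CArG box had no match. RefSeq starts Jund further upstream than GENCODE, and before the GENCODE start a TGACGTCA lies at 0.210 kb. In the 32851 promoters of the RefSeq table, TGANTCA, TGACGTCA and the CArG box stood in 6.75%, 1.55% and 1.47%.

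Fos had the most loops, and its strong ones joined the promoter to the DNA around the gene. The gene lies on chromosome 12 (mm10, 85473890 to 85477273, plus strand), and its loops started from 1 promoter anchor of 3.42 kb. This anchor holds the CArG box of the Fos serum response element, 0.304 kb upstream of the gene start. The loop with the most tags, 14 at an FDR of 0.000432, joined it to an anchor 11.9 kb downstream (85484736 to 85486768). This anchor lies outside GENCODE genes, and Fos was its nearest TSS at 9.82 kb. It holds a CArG box as well, 12.2 kb from the gene start. A CArG box stood in 12.9% of the 3885 anchors far from every TSS, and in 1 of the 14 such member anchors. Both boxes are shown in capitals within the surrounding GRCm38 bases so that their letters can be compared. Whether they bear on the loop was not tested.
Fos promoter, chr12:85473526-85473645, plus strand: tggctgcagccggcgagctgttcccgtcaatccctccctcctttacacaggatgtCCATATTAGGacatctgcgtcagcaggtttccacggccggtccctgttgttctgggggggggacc
Fos downstream anchor, chr12:85486059-85486178, plus strand: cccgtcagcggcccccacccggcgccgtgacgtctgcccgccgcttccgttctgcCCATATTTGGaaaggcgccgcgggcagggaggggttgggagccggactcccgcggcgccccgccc

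A loop of 9 tags at an FDR of 0.0262 joined Fos to an anchor 18.2 kb upstream (85454284 to 85457058). This anchor was also outside GENCODE genes, though a RefSeq exon overlaps it, and its nearest GENCODE TSS was that of Fos at 16.8 kb. RefSeq annotates an enhancer of the VISTA collection within it. A loop of 8 tags at 98.8 kb upstream led to the promoter of Tmed10, a carrier of secretory cargo, and 2 tags joined Fos to Irf2bpl over 1410 kb. All 4 of these loops were in the first part of the list, which held 41 of the 44 Fos tags, and the 11 others were single tags. The downstream anchor gave 14 of its 19 tags, or 73.7%, to Fos, and its other 5 loops had 1 tag each. The upstream anchor gave 47.4% of its 19 tags to Fos, and the Tmed10 anchor 42.1%. These 3 distal anchors were chosen for their loops of at least 4 tags to Fos. Among the anchors themselves no loop was listed, so that all 31 tags within this group joined an anchor to the Fos promoter. They lie 30.1, 80.6 and 111 kb from each other, and the shortest loop of a single tag in the whole list spanned 109 kb. Weaker contacts between them may therefore be unlisted. In the second part the downstream and upstream anchors took part in 4 and 3 loops, all to other places than Fos.

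Fosl2 encodes Fra-2, a Fos protein without a strong activation domain. Its 18 tags were in 10 loops and 17 of them were in the first part. Its strongest loop had 8 tags, an FDR of 0 and a span of 439 kb, and led upstream to the shared promoter region of Babam2, a subunit of a deubiquitinase complex, and Rbks, the ribokinase gene. Loops of this strength were rare at such distances, since 9 of the 14674 loops longer than 400 kb had at least 8 tags. This anchor gave 80% of its 10 tags to Fosl2. A further 2 tags led to Slc4a1ap and Supt7l at 610 kb, and the other 8 loops had a single tag. Fosl1, which encodes Fra-1, lay at the other end of the family. Its loops were single tags, to the promoters of Sf3b2 and Gal3st3 and of Map3k11 and Pcnx3.

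The 8 tags of Fosb were all in the second part, and 4 of them were in a loop of 7.14 kb at an FDR of 0.0350. The distal anchor of this loop lay over the last exon of Fosb itself, at the TSS of the noncoding gene Gm26802. The other 4 loops were single tags to Dmpk and Six5, Fbxo46, Gemin7 and Clptm1. The Fosb promoter anchor resembled that of Fos in having a CArG box 0.262 kb upstream of the gene start, on chromosome 7. It is shown for comparison with the Fos element above.
Fosb promoter, chr7:19310253-19310372, minus strand: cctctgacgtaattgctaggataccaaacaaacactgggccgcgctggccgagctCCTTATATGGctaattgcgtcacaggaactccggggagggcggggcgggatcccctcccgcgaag

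In both parts of the list Jun had a loop to a region away from other promoters. The gene lies on chromosome 4 (95049034 to 95052222, minus strand). An anchor 109.3 kb upstream was joined to the promoter by 7 tags in the first part, at an FDR of 0.0262. An overlapping anchor 110.1 kb upstream was joined to it by 3 tags in the second part, at an FDR of 0.000394. Neither had a TSS within 2 kb, the nearest being that of Gm28096 at 8.64 kb, and Jun was the nearest protein-coding gene at 108 kb. The region overlaps an exon of Junos, the noncoding gene that starts opposite Jun. The wider anchor holds 2 matches to TGAGTCA, the preferred AP-1 site. The Jun promoter holds TGACATCA, the letters of the AP-1 site through which Jun is known to regulate itself, starting 45 bases before the gene start, and 2.93% of the RefSeq promoters hold it in the same window. The distal and promoter sites are shown because they are the letters that AP-1 itself reads.
Jun upstream anchor, chr4:95162133-95162252, plus strand: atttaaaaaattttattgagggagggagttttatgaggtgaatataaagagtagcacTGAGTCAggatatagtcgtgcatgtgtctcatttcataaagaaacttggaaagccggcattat
Jun upstream anchor, chr4:95162573-95162692, plus strand: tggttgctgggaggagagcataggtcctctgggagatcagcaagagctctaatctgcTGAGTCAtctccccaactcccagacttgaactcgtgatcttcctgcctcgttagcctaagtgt
Jun promoter, chr4:95052223-95052472, minus strand: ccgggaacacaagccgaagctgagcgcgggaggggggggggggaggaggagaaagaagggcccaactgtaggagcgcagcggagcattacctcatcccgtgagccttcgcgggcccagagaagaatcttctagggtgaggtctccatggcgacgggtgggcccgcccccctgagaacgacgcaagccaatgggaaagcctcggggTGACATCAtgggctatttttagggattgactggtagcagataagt

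Of the 14 tags at this upstream region, 10 joined Jun and the other 4 loops had 1 tag each. A loop of 2 tags led 333 kb upstream to an anchor outside genes (95384390 to 95386604), 16.2 kb from the TSS of Gm29064, and a single tag joined the same anchor to the region 110.1 kb upstream. The promoter of Plaa was joined to Jun by 1 tag in each part. Single tags led to Tek, the receptor of angiopoietins, and to Hook1. Jun thus had 8 tags in each part of the list.

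Jund, which is expressed in most cells and is not an immediate early gene in the strict sense, had its strongest loop with Lsm4, a subunit of the spliceosomal Lsm ring. This loop had 14 tags at an FDR of 0.000316 in the first part, over 25.8 kb. In the second part it had 4 tags at an FDR of 0.0156, over 25.6 kb. Together they were 18 of the 30 Jund tags. The Lsm4 anchor had 31 tags in all. Loops of 2 tags led to Map1s and to Isyna1 and Ssbp4, and the other 8 loops were single tags. Over all members, 3 of 41 loops of the first part had a counterpart with both anchors overlapping in the second part, at Jund and Lsm4, Jun and its upstream region, and Jun and Plaa. This was 7.32% (2.52 to 19.4) beside 6.50% of all first-part loops. For loops of at least 4 tags it was 2 of 8 beside 18.8%.

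Junb and Ier2 lie 316 kb apart on chromosome 8, and the only loop between members joined them. It had 2 tags over 315 kb at an FDR of 0.000571 and was in the second part. Ier2 had its strongest loop, 8 tags over 27 kb, with the promoters of Nacc1, a transcriptional corepressor, and Trmt1, a tRNA methyltransferase. Its FDR of 0.0490 was close to the threshold of 0.05. Junb had its strongest, 7 tags over 8.43 kb at an FDR of 0.00167, with an anchor at Rnaseh2a, Prdx2 and Gm49661. A loop of 4 tags over 59.0 kb, at an FDR of 0.0175, joined Junb to Tnpo2, a nuclear import receptor. The Tnpo2 anchor had 35 tags in all, of which Junb took 11.4%. In contrast to Ier2, with 13 tags in the first part and 5 in the second, Junb had 4 and 17.

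The partners were shared as well. Junb reached Nacc1 and Trmt1 with 2 tags, and Ier2 reached Tnpo2 with 2 tags. Both had a single tag to the noncoding gene Gm37352, 460.6 kb from Ier2. Among these 5 places, 8 of 10 pairs were joined by a loop, with 22 tags in all, 16 in the first part and 6 in the second. The partners were chosen because both genes loop to them, so every pair with Ier2 or Junb was joined before the count. Of the pairs between partners, Nacc1 with Gm37352 had a loop, of 2 tags. Tnpo2 with Nacc1 and Tnpo2 with Gm37352 had none, so the count of joined pairs is no measure of how connected these places are. The loops between them had 8 tags over 27 kb and 4 over 59.0 kb, and 1 or 2 over 289 kb and more. In the whole list the shortest loop of a single tag spanned 109 kb, so such a fall with distance is not particular to these places. The other Ier2 loops were single tags to Klf1, Dnase2a, Prkaca, Samd1 and an intron of Nfix.

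**Figure D4:**
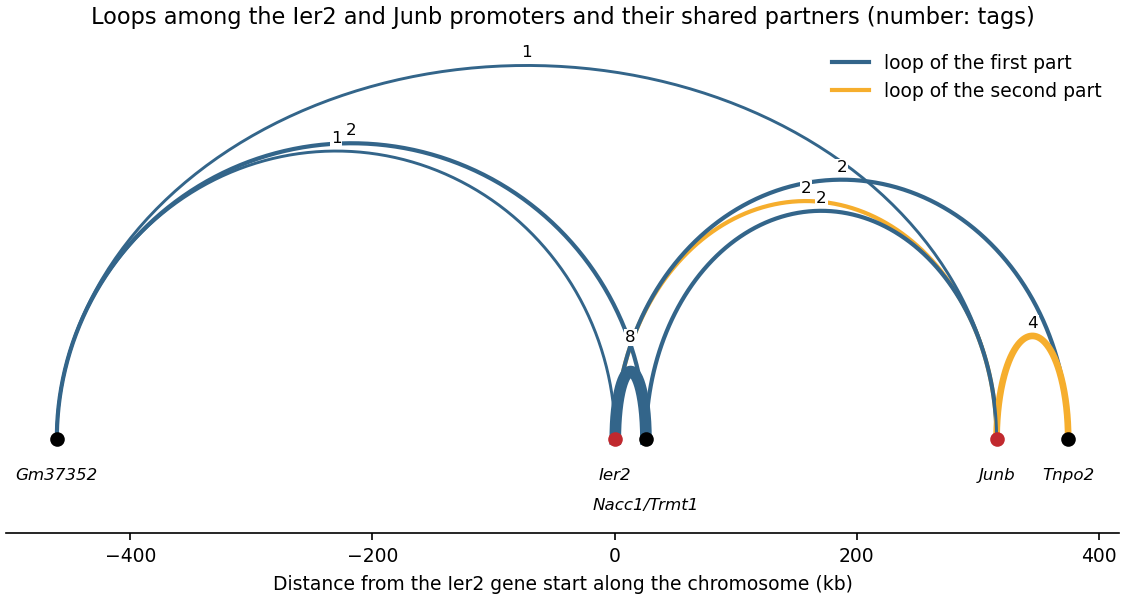
Loops among the Ier2 and Junb promoters (red) and the distal anchors that both reach (black), along the chromosome in kb from the Ier2 gene start. Each arc is a loop with its tags as a number and as line width, colored by part of the list, and arc height has no unit. The heaviest arcs, of 8 and 4 tags, are the short ones, and the Ier2 to Junb arc of 2 tags spans 315 kb.

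The sites of these promoters differed in kind. The Ier2 promoter holds a cAMP response element 0.0415 kb before the gene start. A TGAGTCA lies 2.91 kb upstream of Ier2, beyond the 2 kb promoter window and only within the wider of its promoter anchors. Junb has a CArG box 1.45 kb upstream, also only within the wider of its promoter anchors. A further Junb CArG box, 2.09 kb downstream of the gene start, lies in both of its anchors. The sites upstream are shown on the strand of the genes.
Ier2 promoter, chr8:84662853-84662953, minus strand: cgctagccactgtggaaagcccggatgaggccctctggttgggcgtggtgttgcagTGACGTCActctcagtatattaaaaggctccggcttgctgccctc
Ier2 upstream, chr8:84665699-84665818, minus strand: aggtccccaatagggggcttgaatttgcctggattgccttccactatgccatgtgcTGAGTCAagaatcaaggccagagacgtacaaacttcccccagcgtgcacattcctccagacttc
Junb promoter, chr8:84980104-84980223, minus strand: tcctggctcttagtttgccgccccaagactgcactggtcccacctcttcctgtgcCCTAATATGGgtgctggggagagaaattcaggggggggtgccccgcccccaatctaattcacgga

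Atf3 had its loops in the second part alone. A loop of 2 tags at an FDR of 0.000728 led to Angel2 over 254 kb, and a single tag over 170 kb led to an anchor within Ppp2r5a, a regulatory subunit of protein phosphatase, 2.08 kb from its TSS. Both started from an internal TSS of the gene. With a promoter window of 5 kb in place of 2 kb its score was 7 in place of 3, and no other member changed with this window.

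Egr1 was the most concentrated of the members with more than 3 tags. Of its 15 tags, 12 (80%) joined its promoter to that of Etf1, the translation termination factor gene, over 70.3 kb at an FDR of 0.000263. The Etf1 anchor had 48 tags in 16 loops, of which the Egr1 promoter took 25%. Single tags led from Egr1 to Apc, to Sil1 and to an anchor 10.5 kb from the TSS of Tmem173. No Egr1 loop was in the second part, where tags of loops that were not called would not be listed.

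Other genes of the pathway were looped to varying degrees. Over all protein-coding genes, 45.8% had a loop and 10.9% a score of at least 10. Of 15 other leucine zipper partners of AP-1, 10 had a loop and 6 a score of at least 10, at a median of 6. The stress response factor Atf4 had the highest score at 48, above that of Fos, and the small Maf genes Mafg and Mafk had 29 each. Batf, Batf3, Mafa and Nrl had no loop. Of 32 other immediate early genes, 26 had a loop and 13 a score of at least 10, at a median of 7. Gadd45b, a stress-induced signaling gene, reached 73, Zfp36, which destabilizes messenger RNA, 40 and Ier5l 36. The relatives of Egr1 had little, with 1 tag at Egr3 and none at Egr2 and Egr4, and Ccn2, Arc, Npas4 and Ptgs2 also had none. Srf, the gene of serum response factor, had 11 tags, 10 of them in the second part. Of 14 genes of upstream kinases and factors, 11 had a loop and 2 a score of at least 10, at a median of 4. Mrtfa, a coactivator of serum response factor, had 12 tags and Mapk7 had 7. No loop joined a member to a gene of these lists.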

How the data were processed

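HiChIP with an H3K27ac antibody was run on 2 hSS2 tumors, and the merged list of their loops is the file used here. The authors aligned the reads with HiC-Pro (mm10), used hichipper to call loops, and merged the tumors. The deposited count of tags per loop is a whole number and not normalized, and the deposited FDR is an adjusted p-value (under 0.05 in the methods, 0.01 in a figure legend). MACS2 is also named in the submitters' processing notes. The other 69 samples of the series were not analysed here.

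Positions were converted to start at 1. TSSs were taken from GENCODE vM21, and promoter windows were 2 kb on either side. Loop scores are summed tags. Members, lists and tests were chosen with earlier results of these data known. All members were named, with the partners of their 3 strongest loops, of loops of at least 4 tags and of loops to listed genes, and the 3 highest genes of each list, except a gene not reported here; single-tag partners, other listed genes and markers were named after their values were seen. Sequences are RefSeq GRCm38. TGAGTCA, TGACATCA and the CArG box were searched after the values were seen. Assignment was tested on simulated loops, and all 200 planted genes were recovered. Python 3.11.15, pandas 2.3.3 and scipy 1.17.1 were used.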

Additional observations from a re-analysis of the deposited data

How the results depend on the processing

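The number of looped members, their summed tags, the share of single-tag loops and the share of distal anchors near a TSS were recomputed under 11 alternatives, and 40 of 44 values stayed within 1.5 times the main count or within the interval of the main share. The exceptions were these. With an FDR under 0.01 the summed tags were 80 in place of 173 and the share of single-tag loops 0%, since no single-tag member loop has such an FDR. With at least 2 tags that share is 0% by construction. In the second part of the list alone the summed tags were 55, in 34 of the 75 loops. Windows of 1 kb, protein-coding transcripts, RefSeq TSSs, a span of at most 1 Mb and keeping repeated loops once moved no member's score by over 1.5 times. An FDR under 0.01 moved 8 of 10 scores, leaving Fosb and Fosl1 with no loop, at least 2 tags moved 3, the first and second parts alone moved 5 and 6, and a window of 5 kb moved Atf3. Leaving out each tumor was not possible because the list merges them. No paired analysis was possible because the list has 1 count per loop for both tumors. The depth, with most loops at a single tag, limits what can be said of any single loop.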
